A study of Homo sapiens with 6 samples.

Results

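The Src family kinases SRC, FYN, YES1, LYN, LCK and FGR and their brakes CSK and PAG1 were examined in HuCCT1 cells, an established human intrahepatic cholangiocarcinoma (iCCA) line. These 8 genes were picked by symbol from the 20811 genes of the expression table, and each was found there with 1 amplicon. HuCCT1/CD90+ cells carried the human THY1-CMV-GFP lentivirus, which supplies CD90, while the HuCCT1/CD90- line was given the Lenti-CMV-GFP-2A-Puro-Blank lentivirus, with 3 libraries of each line. Both lines were thus transduced and grown in the same medium, and the sources do not say whether a line was 1 clone or a mixed population. Nothing states that the 3 libraries of a line came from separate cultures, so p-values measure the spread between these libraries, which may be technical.

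Src family kinases are tyrosine kinases that sit on the inner face of the plasma membrane and pass on signals from integrins, growth factor receptors and other surface proteins. CSK, a kinase of the cytoplasm, switches them off by phosphorylating a tyrosine in their tail. PAG1 is a membrane adaptor of lipid rafts that, once phosphorylated, binds CSK and brings it close to its targets. CD90 is held in the outer face of the membrane by a GPI anchor and has no part inside the cell, and it is known for sharing rafts with Src family kinases in other cell types.

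Expression is given as RPM, the amplicon reads of a gene scaled by the library's depth, and the libraries held 8587634 to 10551516 reads on genes. THY1 read 0, 0.107 and 0 RPM in HuCCT1/CD90- against 46.6, 51.8 and 73.8 RPM in HuCCT1/CD90+, in the direction of the labels (adjusted p = 0.00045, limma). limma was run on log2(RPM + 1) of the whole table, and a Benjamini-Hochberg adjusted p of at most 0.05 called a gene changed. The log2 ratio below is the fitted log2 fold change of RPM + 1, HuCCT1/CD90+ minus HuCCT1/CD90-, and it understates the change of genes with few reads. Of biliary epithelial marker genes, 7 of 8 were above the detection floor of 3 reads in every library, and CFTR had 1 to 15 reads. Of these 8 markers, 5 were called higher in HuCCT1/CD90+, beside 9.41% of all genes. The 8 summed to 8211 to 9314 RPM in HuCCT1/CD90- against 10976 to 11722 RPM in HuCCT1/CD90+. Of fibroblast markers, 6 of 7 were lower in HuCCT1/CD90+, and their summed level was 60.6 to 91.1 RPM in HuCCT1/CD90- against 21.3 to 26.2 RPM in HuCCT1/CD90+. Endothelial markers summed to 14.9 to 23.4 RPM against 1.29 to 1.86 RPM, and most of the HuCCT1/CD90- sum came from CDH5, the only one of 5 called, at 141 to 203 reads in HuCCT1/CD90- and 2 to 4 reads in HuCCT1/CD90+. VWF and KDR had no read in HuCCT1/CD90- and at most 4 in HuCCT1/CD90+. With the replicate number as a block, 3 fibroblast markers were called lower and 3 biliary markers higher, beside 13.1% of all genes in either direction. The part of these markers in the results below was not tested.

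Of the 8 members, 1 rose and 1 fell in HuCCT1/CD90+, beside 18.9% of all genes called in either direction, 9.41% higher and 9.52% lower. PAG1, the CSK adaptor, was 2.27-fold higher in HuCCT1/CD90+. YES1, a kinase made in most tissues like SRC and FYN, was 1.48-fold lower. In these bulk libraries, fewer cells with a transcript and less of it per cell cannot be told apart. SRC, FYN, LYN, LCK and CSK did not pass the test, and FGR was at the detection floor in both lines. The libraries of the lines did not overlap for 2 of the 8 members, PAG1 and YES1, beside 35% of all genes (17.3% higher and 17.7% lower) and 52.6% of the 12062 genes averaging 1 RPM or more. Among those 12062 genes limma called 29.4%, so the members' count of 2 of 8 is near the background. With the replicate number as a block only PAG1 was called, beside 13.1% of all genes. Both PAG1 and YES1 were called by edgeR (27.6% of all genes), by edgeR after filterByExpr (44.4% of 12070 genes) and by DESeq2 (37% of 14399 genes). The study's rule of a 1.5-fold change at an unadjusted p of at most 0.05 called PAG1 alone of the members and 20.1% of all genes.

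**Figure D1:**
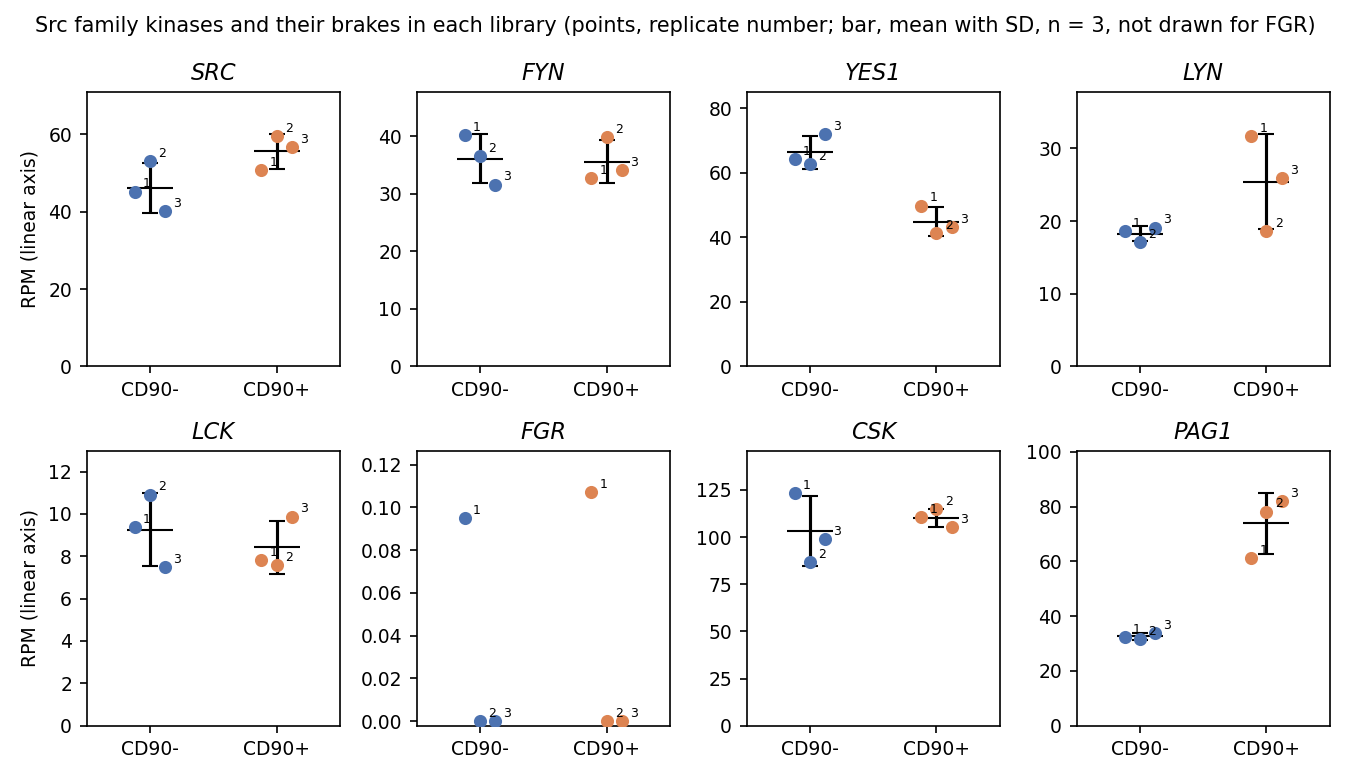
RPM of each member (vertical axes, linear) in HuCCT1/CD90- (blue) and HuCCT1/CD90+ (orange); points are libraries marked with their replicate number, and bars show the mean with SD (n = 3), left out for FGR. PAG1 and YES1 are the members whose 3 HuCCT1/CD90+ libraries all lie on one side of the HuCCT1/CD90- libraries, and LYN, with an SD of 6.57 RPM around 25.4 RPM, is widely spread among the HuCCT1/CD90+ libraries.

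YES1 (amplicon AMPL28184766) was the kinase with the most reads in HuCCT1/CD90-. Its GENCODE 29 gene spans 721588 to 812546 on chromosome 18 (GRCh38, minus strand). Replicates 1 to 3 read 64.3, 62.7 and 72.1 RPM in HuCCT1/CD90- against 49.9, 41.2 and 43.3 RPM in HuCCT1/CD90+. The lowest HuCCT1/CD90- library was thus above the highest HuCCT1/CD90+ library. The mean went from 66.3 ± 5.02 to 44.8 ± 4.50 RPM (n = 3 per line, ± SD), which is a log2 ratio of -0.56 (standard error 0.096, 95% interval -0.81 to -0.30, adjusted p = 0.024 by limma). With the replicate number as a block the adjusted p was 0.084, and leaving out 1 library kept the sign (-0.64 to -0.50) but ended the call in each case except HuCCT1/CD90+ replicate 1, with adjusted p-values from 0.062 to 0.091. On recovered reads the fall passed with edgeR (adjusted p = 0.0052) and DESeq2 (adjusted p = 0.0019). YES1 overlaps antisense genes and has a processed pseudogene, YES1P1, on chromosome 22. The strand used in counting is not given in the sources used here, so the part of these copies in the value was not tested.

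Because YES1 was the kinase that changed, its promoter is shown beside the first of 4 listed promoters of FYN, which did not pass the test, and the listed promoters of LCK, whose use is otherwise tied to T cells. RefSeq windows (GRCh38.p14) were examined for 5 members, FYN, YES1, LCK, FGR and CSK. None was examined for SRC, LYN or PAG1, which does not mean that none exists. Each line gives the 250 bases before the start, 5′ to 3′ on the gene's strand, with capitals marking the GC box GGGCGG, the CCAAT box CCAAT, the TATA box TATAAA and the E box CACCTG on either strand. The YES1 window is chr18:812243-812492, the FYN window chr6:111873453-111873702, and the LCK windows chr1:32251015-32251264 and chr1:32273871-32274120.
YES1: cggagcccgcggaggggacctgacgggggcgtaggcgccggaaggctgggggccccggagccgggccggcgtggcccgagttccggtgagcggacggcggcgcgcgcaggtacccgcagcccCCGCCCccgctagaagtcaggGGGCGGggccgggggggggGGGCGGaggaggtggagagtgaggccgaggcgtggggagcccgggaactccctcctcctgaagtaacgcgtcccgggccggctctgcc
FYN: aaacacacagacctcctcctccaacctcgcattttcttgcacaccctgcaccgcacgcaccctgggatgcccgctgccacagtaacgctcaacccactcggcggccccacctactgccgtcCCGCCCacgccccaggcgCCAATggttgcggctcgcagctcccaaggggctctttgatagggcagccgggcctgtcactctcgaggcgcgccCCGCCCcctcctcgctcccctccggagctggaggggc
LCK upstream start: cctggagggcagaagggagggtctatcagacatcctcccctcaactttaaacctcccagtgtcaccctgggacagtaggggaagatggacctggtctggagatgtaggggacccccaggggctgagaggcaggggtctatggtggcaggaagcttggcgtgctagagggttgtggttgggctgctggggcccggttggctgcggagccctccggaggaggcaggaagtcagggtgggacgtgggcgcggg
LCK downstream start: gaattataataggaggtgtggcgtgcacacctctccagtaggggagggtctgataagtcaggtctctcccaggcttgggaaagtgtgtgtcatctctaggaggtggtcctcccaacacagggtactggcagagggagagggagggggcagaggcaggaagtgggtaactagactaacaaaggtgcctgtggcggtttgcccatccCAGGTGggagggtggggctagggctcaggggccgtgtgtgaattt

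The YES1 window held 3 GC boxes and none of the other motifs, and 79.2% of its bases were G or C. The FYN window held 2 GC boxes and 1 CCAAT box at 68.8% G or C. The other FYN windows differed widely, from 8 GC boxes at 80.8% G or C in the second to none at 38% and 45.6% in the others, so a comparison with YES1 depends on the FYN window chosen. Neither LCK window held a GC box, and the downstream one held 1 E box. Of 35116 promoter windows of the same length, 42.6% held a GC box, 32% a CCAAT box, 10.7% a TATA box and 17.5% an E box, and the median G or C content was 58%. These are matches of letters, and the amplicons do not tell which LCK or FYN start was used.

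SRC encodes the kinase that gave the family its name, and it lies on chromosome 20 from 37344685 to 37406050. It had 45.2, 53.1 and 40.2 RPM in HuCCT1/CD90- and 50.7, 59.5 and 56.6 RPM in HuCCT1/CD90+. The lines overlapped, since HuCCT1/CD90- replicate 2 was above HuCCT1/CD90+ replicate 1, but SRC was higher in HuCCT1/CD90+ in 3 of 3 same-numbered pairs. With these pairs as a block the adjusted p was 0.23. The means were 46.1 ± 6.51 and 55.6 ± 4.49 RPM, with a log2 ratio of 0.27 (95% interval -0.065 to 0.61, adjusted p = 0.25 by limma).

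FYN, a kinase with well-known roles in T cells, neurons and adhesion, lies on chromosome 6 from 111660332 to 111873452. It had 40.2, 36.6 and 31.6 RPM in HuCCT1/CD90- and 32.8, 39.8 and 34.1 RPM in HuCCT1/CD90+. The libraries of the lines were interleaved, with means of 36.1 ± 4.30 and 35.6 ± 3.74 RPM. The log2 ratio was -0.021 (95% interval -0.35 to 0.30, adjusted p = 1 by limma).

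LYN, the Src family kinase best known from B cells and myeloid cells, lies on chromosome 8 from 55879813 to 56014168. It had 18.6, 17.1 and 19.1 RPM in HuCCT1/CD90- and 31.7, 18.6 and 25.9 RPM in HuCCT1/CD90+. HuCCT1/CD90+ replicate 2 lay among the HuCCT1/CD90- libraries and the other two were above all of them. In 3 of 3 same-numbered pairs LYN was higher in HuCCT1/CD90+, and the adjusted p under the block was 0.25. The SD between HuCCT1/CD90+ libraries was 6.57 RPM, where counting alone gives 1.66 RPM. The log2 ratio of 0.43 (95% interval -0.13 to 0.98) did not pass with limma (adjusted p = 0.27), edgeR (adjusted p = 0.057) or DESeq2 (adjusted p = 0.069). Without HuCCT1/CD90+ replicate 2 it was 0.63 (adjusted p = 0.058), and without HuCCT1/CD90+ replicate 1 it was 0.26 (adjusted p = 0.48).

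LCK, the kinase that starts T cell receptor signalling, was also read in this carcinoma line. It had 9.38, 10.9 and 7.47 RPM in HuCCT1/CD90- and 7.83, 7.57 and 9.88 RPM in HuCCT1/CD90+, from 65 to 102 reads in a library. The lines overlapped, and the log2 ratio was -0.12 (95% interval -0.57 to 0.34, adjusted p = 0.79 by limma). The ratio was -0.0012 without HuCCT1/CD90- replicate 2 and -0.25 without HuCCT1/CD90- replicate 3. FGR, a kinase of myeloid cells, had 1 read in replicate 1 of each line and 0 reads in the other 4 libraries, so no fold is given. The limit that a count of 0 allows is 3 reads, or 0.284 to 0.349 RPM in these libraries, for counting error only. LCK lies on chromosome 1 from 32251239 to 32286165 and FGR on the same chromosome from 27612064 to 27635277.

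LCK and FGR belong to the blood-cell branch of the family, so blood-cell markers were set beside them. Of 13 such markers, 8 were at the floor in both lines. CD247 and MS4A1 had no read in any library, PTPRC (CD45) had 1 read in 1 library, and CD3D and CD3E had at most 3 reads in any library. LAT, an adaptor of T cells, had 12, 34 and 20 reads in HuCCT1/CD90- against 3, 9 and 3 in HuCCT1/CD90+, without overlap (adjusted p = 0.15 with limma, 0.00046 with edgeR and 0.015 with DESeq2). The summed level of the list was 71.5 to 92.3 RPM in HuCCT1/CD90- against 6.08 to 8.27 RPM in HuCCT1/CD90+. Most of it came from CD14, which was 69.3 to 88.2 RPM in HuCCT1/CD90- against 4.18 to 4.54 RPM in HuCCT1/CD90+. Whether the LCK reads came from blood cells was not tested. CD79A was called higher, with 7 to 12 reads in HuCCT1/CD90+ libraries. SPI1, at the floor in both lines with at most 2 reads, was called higher by limma (adjusted p = 0.041) but not under the replicate block (0.10), with edgeR (0.18) or with median centring (0.14).

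CSK, the shared brake of the family, lies on chromosome 15 from 74782057 to 74803198. It had 123, 86.8 and 99.05 RPM in HuCCT1/CD90- and 111, 115 and 105 RPM in HuCCT1/CD90+. The HuCCT1/CD90+ libraries lay inside the range of the HuCCT1/CD90- libraries, whose SD of 18.6 RPM was above the 3.19 RPM that counting gives. The means were 103 ± 18.6 and 110.3 ± 4.79 RPM, and the log2 ratio was 0.11 (95% interval -0.27 to 0.49, adjusted p = 0.73 by limma).

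PAG1 (amplicon AMPL33106903) spans 80967810 to 81112068 of chromosome 8 (minus strand), where lincRNA genes overlap it on the opposite strand. Replicates 1 to 3 read 32.2, 31.7 and 34.0 RPM in HuCCT1/CD90- against 61.3, 78.2 and 82.1 RPM in HuCCT1/CD90+. The HuCCT1/CD90- libraries lay close together, and each HuCCT1/CD90+ library was well above them. The mean rose from 32.6 ± 1.19 to 73.9 ± 11.1 RPM (n = 3 per line, ± SD), which is a log2 ratio of 1.15 (standard error 0.13, 95% interval 0.81 to 1.48, adjusted p = 0.0075 by limma). By size this rise ranked 833 among all 20811 genes. Its adjusted p was 0.041 at most in the alternatives run, in the fit under the replicate block, and with 1 library left out the log2 ratio was 1.06 to 1.27.

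**Figure D2:**
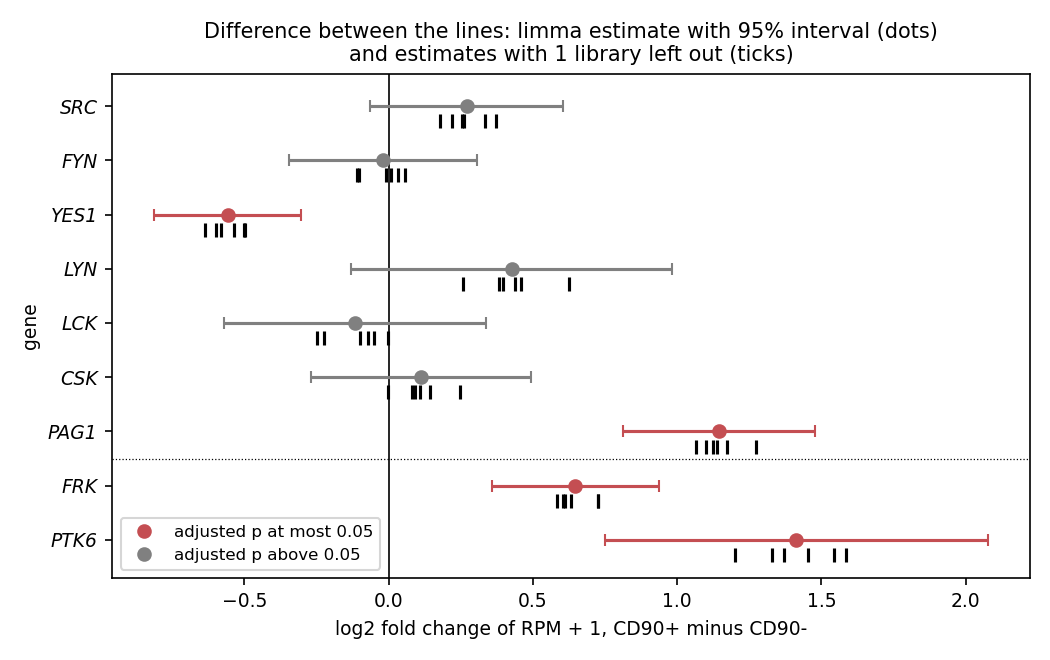
Log2 fold change of RPM + 1, HuCCT1/CD90+ minus HuCCT1/CD90- (horizontal axis), for 7 members and, below the dotted line, the related kinases FRK and PTK6; dots are limma estimates with 95% confidence intervals, red at an adjusted p of at most 0.05, and ticks are estimates with 1 library left out. PAG1 (1.15) and YES1 (-0.56) have intervals away from 0, while those of SRC, FYN, LYN, LCK and CSK include it.

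The 6 kinases were also set against each other within each library. An amplicon read does not depend on transcript length, but amplicons can amplify unequally, so these shares count reads and not transcripts, and no test was made on them. The summed level of the 6 kinases was 170.4 to 180.4 RPM in HuCCT1/CD90- against 166.7 to 173.03 RPM in HuCCT1/CD90+. The ranges overlapped, and the sum was lower in HuCCT1/CD90+ in 3 of 3 same-numbered pairs. In replicate 3, however, it was 170.4 RPM in HuCCT1/CD90- against 169.8 RPM in HuCCT1/CD90+, a gap smaller than counting error. YES1 supplied 36.2%, 34.8% and 42.3% of the kinase reads in HuCCT1/CD90- and 28.8%, 24.7% and 25.5% in HuCCT1/CD90+. SRC supplied 25.4%, 29.4% and 23.6% against 29.3%, 35.7% and 33.4%. YES1 was the kinase with the most reads in each HuCCT1/CD90- library and SRC in each HuCCT1/CD90+ library, although HuCCT1/CD90+ replicate 1 had 473 SRC reads and 465 YES1 reads, a gap smaller than counting error. FYN stayed at 18.6% to 22.6% in HuCCT1/CD90- and 19.0% to 23.9% in HuCCT1/CD90+. LYN supplied 10.5%, 9.49% and 11.2% against 18.3%, 11.2% and 15.3%, and LCK 4.38% to 6.05% against 4.52% to 5.81%.

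The brakes were expressed per 100 kinase reads in the same way. CSK gave 69.4, 48.1 and 58.1 reads per 100 kinase reads in HuCCT1/CD90- and 63.9, 68.9 and 62.04 in HuCCT1/CD90+, with overlap. PAG1 gave 18.1, 17.6 and 19.9 against 35.4, 46.9 and 48.4, without overlap. PAG1 reads per CSK read went from 0.261, 0.365 and 0.343 to 0.554, 0.681 and 0.780. The PAG1 values per CSK read did not overlap between the lines either.

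**Figure D3:**
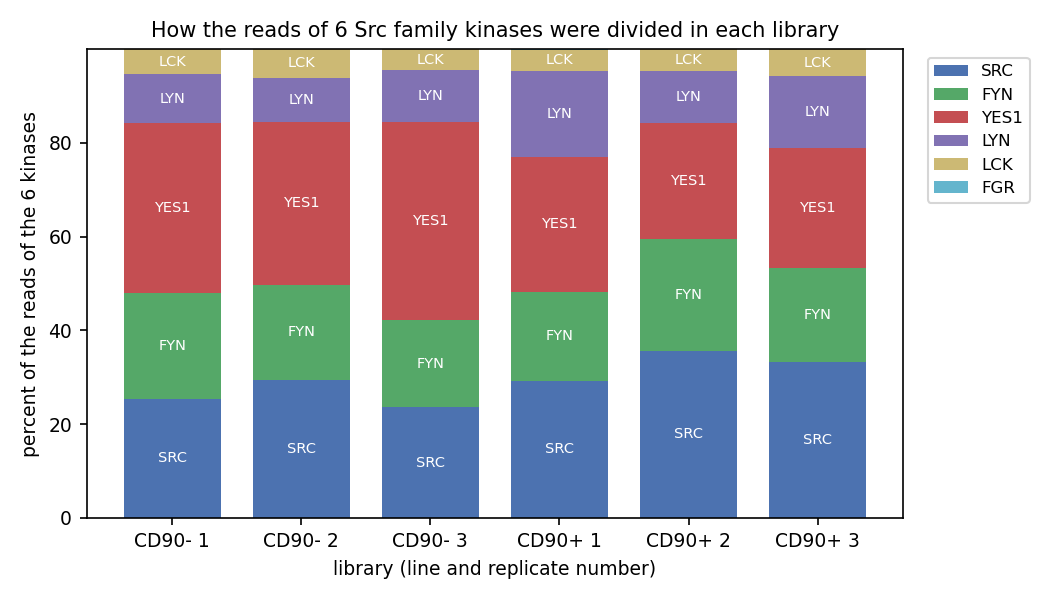
Share of the reads of the 6 Src family kinases (vertical axis, percent) taken by each kinase in each library (horizontal axis); FGR, with at most 1 read, is too thin to be seen. The YES1 part is 34.8% to 42.3% in the HuCCT1/CD90- libraries and 24.7% to 28.8% in the HuCCT1/CD90+ libraries.

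Of 5 other kinases related to SRC, 2 rose and none fell. PTK6 (BRK), a kinase of epithelial linings without a lipid anchor, had 19.2, 33.6 and 27.8 RPM in HuCCT1/CD90- and 59.6, 80.7 and 76.1 RPM in HuCCT1/CD90+. Its mean rose from 26.9 ± 7.23 to 72.1 ± 11.1 RPM (log2 ratio 1.41, standard error 0.25, adjusted p = 0.026 by limma). FRK, another epithelial kinase, had 5.69, 5.24 and 6.60 RPM against 8.58, 10.2 and 10.3 RPM, a log2 ratio of 0.65 (adjusted p = 0.023, or 0.066 under the block, limma). Both were higher in each HuCCT1/CD90+ library than in any HuCCT1/CD90- library. PTK6 lost its call without HuCCT1/CD90- replicate 3 or any 1 HuCCT1/CD90+ library (adjusted p up to 0.095), and FRK without HuCCT1/CD90- replicate 1 or 2 or HuCCT1/CD90+ replicate 2 or 3 (adjusted p up to 0.084). BLK, a kinase of B cells, and SRMS were at the floor in both lines.

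The pathway around the members was followed with 8 lists of 89 measured genes in all, of which 14 rose and 14 fell (31.5%, against 18.9% of all genes and 29.4% of those averaging 1 RPM or more). Under the replicate block 8 rose and 12 fell, and without HuCCT1/CD90+ replicate 3 the counts were 5 and 10. Their median log2 ratio was 0, as over all genes. Of 7 genes that recruit or resemble CSK, 0 were called in the main limma fit, 3 had an unadjusted p under 0.05, and edgeR and DESeq2 each called 2. These 2 were CAV1, a caveolin that can bind CSK, at a log2 ratio of 0.80 (limma adjusted p = 0.058), and PTPN22, a phosphatase partner of CSK in blood cells, at -1.35 (limma adjusted p = 0.053). Both passed with limma without HuCCT1/CD90- replicate 1 (adjusted p = 0.025 for CAV1 and 0.019 for PTPN22). They also passed with limma after quantile normalization (adjusted p = 0.034 and 0.040), after median centring (0.016 and 0.012) and among genes averaging at least 1 RPM. With the median of the 50 nearest genes taken off, CAV1 was at 0.21 (adjusted p = 0.59) and PTPN22 at -1.20 (adjusted p = 0.080).

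Of 8 tyrosine phosphatases known to act on Src kinases or PAG1, 1 rose and 2 fell. PTPN6 (SHP-1), a phosphatase with tandem SH2 domains, rose from 27.5 ± 5.71 to 65.5 ± 8.99 RPM (log2 ratio 1.23, adjusted p = 0.021). The receptor phosphatase PTPRJ (CD148) fell from 185.9 ± 3.95 to 84.2 ± 10.1 RPM (log2 ratio -1.14, adjusted p = 0.0036), and PTPRE fell with a log2 ratio of -1.07 (adjusted p = 0.0056). PTPRA and PTPN11 (SHP2) had log2 ratios of -0.073 (adjusted p = 1) and 0.15 (adjusted p = 0.60). PTPN6 lost its call without HuCCT1/CD90- replicate 3 or HuCCT1/CD90+ replicate 2 or 3 (adjusted p up to 0.079).

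Of 5 genes of ubiquitin ligases that act on active Src kinases, 2 rose and none fell. CBLC, the CBL family member of epithelia, rose from 12.1 ± 3.11 to 70.8 ± 7.45 RPM (log2 ratio 2.48, adjusted p = 0.0044). RNF7, the RING partner of CUL5, had a log2 ratio of 1.12 (adjusted p = 0.0013). The more widely expressed CBL was 55.6 to 83.7 RPM in HuCCT1/CD90- against 55.2 to 80.7 RPM in HuCCT1/CD90+. Of 11 genes of acylation and chaperoning, which attach the fatty acids that hold the kinases at the membrane or fold them, 1 rose and none fell. It was LYPLA1, an enzyme that removes palmitate from proteins (log2 ratio 0.95, adjusted p = 0.019, or 0.080 under the replicate block). It lost its call without HuCCT1/CD90- replicate 1 or 2 or HuCCT1/CD90+ replicate 3 (adjusted p up to 0.068).

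Of 28 substrates and effectors, 4 rose and 7 fell, with a median log2 ratio of -0.13. NEDD9, an adhesion scaffold of the CAS family, rose from 2.20 ± 0.516 to 22.1 ± 1.56 RPM (log2 ratio 2.86, adjusted p = 0.0011), and PTK2B (PYK2) rose from 15.6 ± 0.545 to 65.6 ± 8.58 RPM (log2 ratio 1.99, adjusted p = 0.0012). PTK2, the focal adhesion kinase FAK, fell slightly, with a log2 ratio of -0.36 (adjusted p = 0.017, but 0.069 by edgeR and 0.065 and 0.050 among genes averaging at least 1 and 10 RPM, neither of them called). The adaptor GAB1 (log2 ratio 1.59, adjusted p = 0.030) and ARHGAP35 (0.77, adjusted p = 0.011) rose as well, and both had an adjusted p of 0.080 once the replicate number was a block. GAB1 lost its call without HuCCT1/CD90- replicate 3 or any 1 HuCCT1/CD90+ library (adjusted p up to 0.11), and was at an adjusted p of 0.051 with the neighbour median taken off.

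CTNND1, the gene of p120-catenin, a Src substrate at cell contacts, fell from 93.1 ± 18.5 to 2.71 ± 0.854 RPM (log2 ratio -4.67, standard error 0.23, adjusted p = 0.0011). It was the largest fall in the lists, and its 18 to 34 reads in the HuCCT1/CD90+ libraries stood against 741 to 1204. The value rests on 1 amplicon of unknown position, so a change of isoform and a change of level cannot be told apart. The pseudokinase scaffold PEAK1 fell from 10.5 ± 0.639 to 2.94 ± 0.351 RPM (log2 ratio -1.54, adjusted p = 0.0014). The Src-binding membrane protein CDCP1 was lower with a log2 ratio of -0.66 (adjusted p = 0.014), and SHC1, VAV2 and TNS3 fell with log2 ratios of -0.60, -0.45 and -0.92. With the replicate block the adjusted p of VAV2 was 0.10 and that of TNS3 0.066. With the neighbour median taken off, that of SHC1 was 0.22 and that of VAV2 0.12. Leaving out 1 library ended the calls of SHC1, VAV2 and TNS3 in 5 of 6 cases each (adjusted p up to 0.10, 0.11 and 0.088), and those of PTK2 and CDCP1 in 3 of 6 (up to 0.069 and 0.057). CTTN, the gene of cortactin, was 490.3 to 542 RPM in HuCCT1/CD90- against 496 to 604 RPM in HuCCT1/CD90+.

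**Figure D4:**
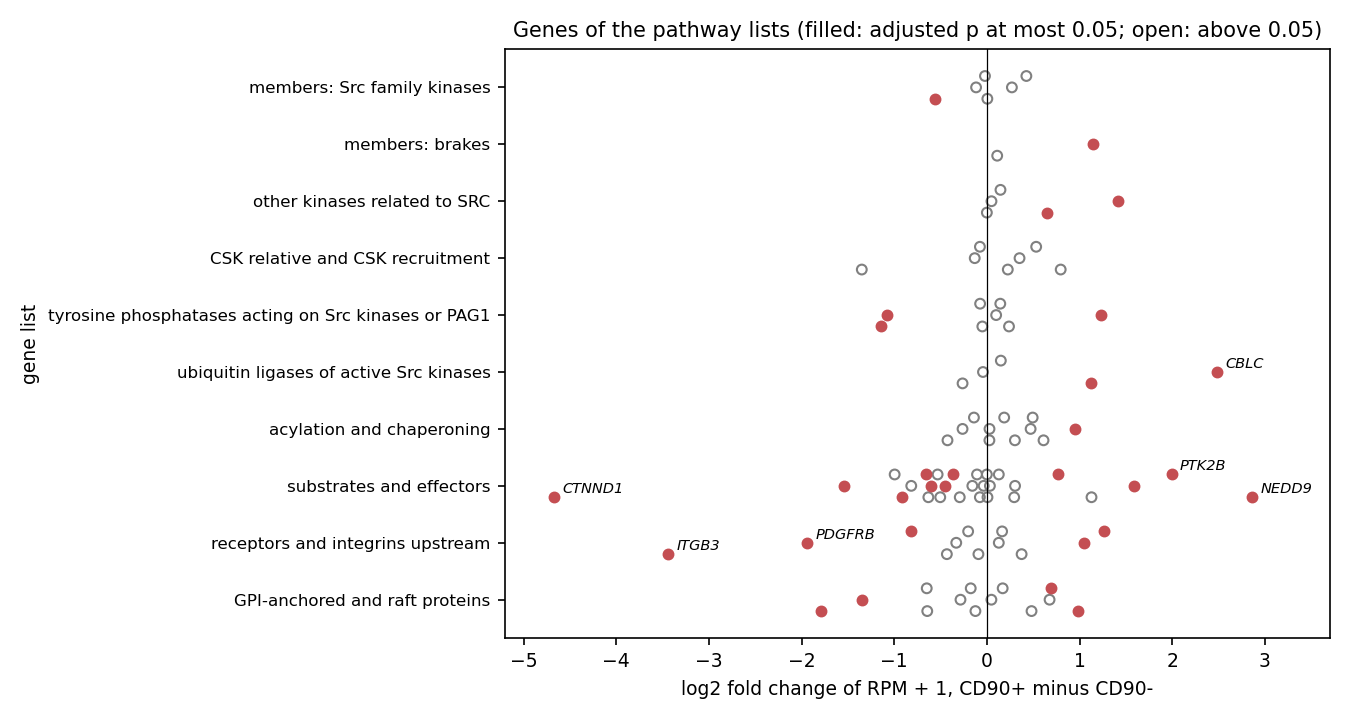
Log2 fold change of RPM + 1, HuCCT1/CD90+ minus HuCCT1/CD90- (horizontal axis), of each measured gene of the members and the 8 pathway lists (rows); filled points have an adjusted p of at most 0.05 and open points an adjusted p above it. The outermost points are CTNND1 (-4.67) and NEDD9 (2.86), and calls lie on both sides of 0 in 4 of the lists.

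Of 12 receptors and integrins that feed into Src kinases, 2 rose and 3 fell. EGFR rose from 228 ± 53.0 to 541 ± 63.6 RPM (log2 ratio 1.26, adjusted p = 0.024) and MET from 118 ± 14.9 to 246 ± 36.8 RPM (log2 ratio 1.05, adjusted p = 0.017). With the median of the 50 nearest genes taken off, EGFR was at 0.70 (adjusted p = 0.12) and MET at 0.43 (adjusted p = 0.17). The integrin chain ITGB3 fell from 20.7 ± 3.93 to 1.01 ± 0.451 RPM (log2 ratio -3.44, adjusted p = 0.0020), PDGFRB, also one of the fibroblast markers, had a log2 ratio of -1.94 (adjusted p = 0.00099), and EPHA2, an ephrin receptor, -0.82 (adjusted p = 0.0095, or 0.064 under the replicate block). With an offset of 5 RPM in place of 1 the log2 ratio of ITGB3 was -2.09 and that of PDGFRB -0.88, and with DESeq2 they were -4.36 and -2.96. With the block EGFR had an adjusted p of 0.068. EGFR lost its call without HuCCT1/CD90- replicate 3 or any 1 HuCCT1/CD90+ library (adjusted p up to 0.086), and MET without HuCCT1/CD90- replicate 1 or 2 or HuCCT1/CD90+ replicate 1 or 3 (up to 0.066).

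Of 13 GPI-anchored and raft proteins other than THY1, 2 rose and 2 fell. Among GPI-anchored proteins, CD55 fell from 10.2 ± 1.94 to 2.28 ± 0.797 RPM (log2 ratio -1.79, adjusted p = 0.012) and CD109 from 152.7 ± 20.5 to 59.8 ± 12.3 RPM (log2 ratio -1.35, adjusted p = 0.013), whereas NT5E (CD73) rose with a log2 ratio of 0.69 (adjusted p = 0.035). CAV2, a caveolin, had a log2 ratio of 0.98 (adjusted p = 0.035), and 0.34 (adjusted p = 0.36) with the median of its 50 nearest genes taken off. The raft scaffold FLOT2 had a log2 ratio of -0.64 (adjusted p = 0.056 with limma, 0.025 under the block and 0.00062 with DESeq2). With the replicate block the adjusted p-values of CD55, NT5E and CAV2 were 0.087, 0.10 and 0.055. NT5E lost its call without any 1 library (up to 0.11), CAV2 without any 1 library but HuCCT1/CD90- replicate 3 (up to 0.12), CD55 without replicate 2 of either line (up to 0.052) and CD109 without HuCCT1/CD90+ replicate 1 (0.053).

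Each member was also set beside the 50 genes nearest to it that averaged 10 RPM or more, since neighbours can move together in a cell line. Around FYN, 21 of 50 neighbours were called lower and their median log2 ratio was -0.51, against -0.021 for FYN itself. The median was taken off by scaling the HuCCT1/CD90+ RPM before the offset of 1 RPM was added, so the values do not subtract exactly. With it taken off, the log2 ratio of FYN was 0.47 (adjusted p = 0.075, limma). The neighbours of YES1, which spanned 35.8 Mb, had a median of 0.14. The closest pair fell with YES1, ENOSF1 at -0.70 (adjusted p = 0.027) and TYMS at -1.06 (adjusted p = 0.0055), while the next nearest, USP14, was at -0.0011 (adjusted p = 1). The neighbours of PAG1, over 30.9 Mb, had a median of 0.17. With these medians taken off, YES1 was at -0.69 (adjusted p = 0.015) and PAG1 at 0.98 (adjusted p = 0.012). The neighbours of LCK, itself at -0.12, had a median of -0.26, and SRC, LYN and CSK had neighbour medians of 0.047, 0.086 and 0.082.

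**Figure D5:**
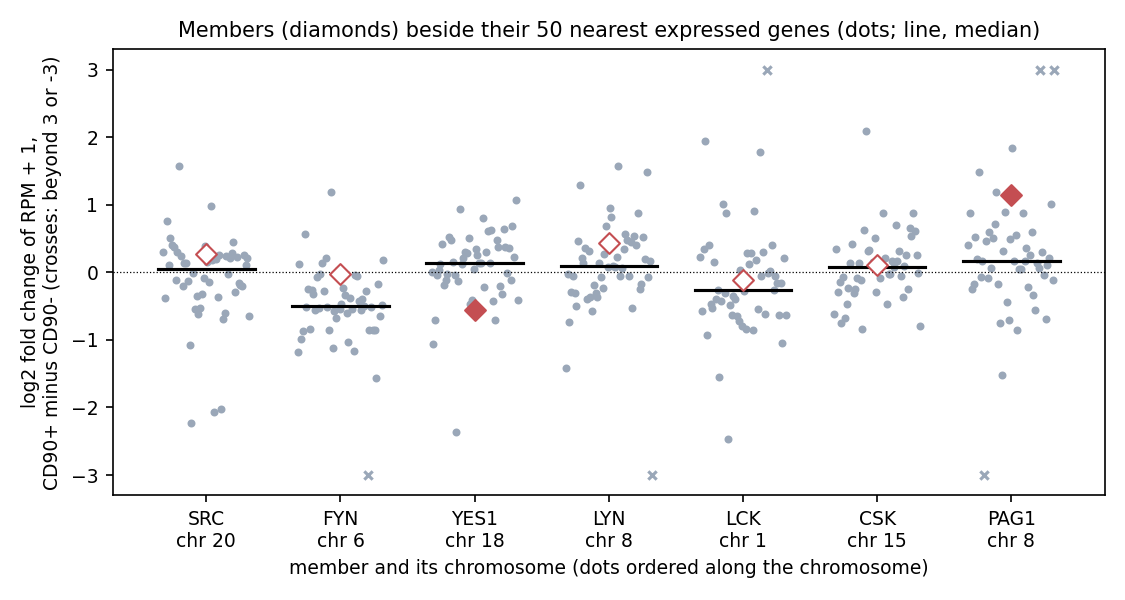
Log2 fold change of RPM + 1 (vertical axis) of 7 members (diamonds, filled at an adjusted p of at most 0.05) and of the 50 nearest genes averaging 10 RPM or more on its chromosome (dots in their order along it, crosses beyond 3 or -3, line at their median). FYN lies above a neighbour median of -0.51, and YES1 lies below a neighbour median of 0.14, with its closest neighbours ENOSF1 (-0.70) and TYMS (-1.06) lower still.

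For each member but FGR, which was at the floor, the most similar genes were sought by Pearson correlation over the 6 libraries (log2(RPM + 1), genes averaging 10 RPM or more). These are descriptions over 6 points that share the split into lines, and 8793 genes were compared (8794 for LCK). PAG1 was most like INPP5K (r = 0.997) and PI4K2A (r = 0.997). YES1 was most like TCTN3 (r = 0.999) and FMR1 (r = 0.998), and SRC was most like ACP2 and MINK1 (r = 0.996 and 0.992). The value was 0.976 for FYN with LRSAM1, for LYN 0.990 with NUDT19 and with RAB21, for CSK 0.993 with C22orf32 and 0.991 with NCAPG2, and for LCK 0.934 with TFIP11 and 0.928 with CARM1.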

How the data were processed

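Total RNA of 3 libraries per line was read on the AmpliSeq transcriptome panel, which has 1 amplicon for each gene, with an Ion Torrent sequencer. Reads were counted by the ampliSeqRNA plugin, and the authors deposited RPM for 20811 genes, with hg19 named in the submitters' processing notes, no amplicon positions and no filter on low values. Coordinates are those of GENCODE 29 on GRCh38 for the gene symbols. Each RPM value was a whole multiple of 1 read to within 0.05 reads, so reads were recovered for 100% of values, and 3 reads was the detection floor. Counting errors and floors cover counting only, since PCR copies carried no molecular identifiers. As each gene has 1 amplicon, isoforms without it are not read.

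log2(RPM + 1) was fitted with limma 3.58.1 in R 4.3.3 (lmFit, eBayes, no block), over all 20811 genes with Benjamini-Hochberg adjustment, as the study's methods name limma. Same-numbered libraries deviated together (r = 0.21, 0.32 and 0.18 for replicates 1, 2 and 3, from this check alone). Between libraries of different numbers r was -0.29 to 0.071. The labels do not say what the numbers mark, so they were treated as a possible pairing. The main fit leaves it out, and an alternative fit took that number as a block. Other alternatives were offsets of 0.1 and 5 RPM, filters at 1 and 10 RPM, quantile normalization, median centring, eBayes with trend and robust settings, each library left out, edgeR 4.0.16 (with and without filterByExpr) and DESeq2 1.42.0 on recovered reads, the study's rule of a 1.5-fold change with unadjusted p, and the neighbour median taken off. limma, edgeR and DESeq2 were also run on simulated counts with a common spread for all genes. The outcome is not given here, so it lends the calls above no weight.

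The members, the 8 pathway lists and the 4 marker lists were chosen with earlier results of these data known, and no set test was made. Of the genes written in the pathway lists, 1 (CD24) was not matched and 2 were matched by older symbols. Genes named are the members, THY1, the related kinases, and in each list the called genes with the largest rise and fall at a mean of at least 1 RPM, with 2 of each in lists of over 10 genes. RNF7, PTPRE, GAB1, ARHGAP35 and EPHA2 were named after their values were seen, as were PTK2, CDCP1, SHC1, VAV2, TNS3, CAV1, PTPN22, FLOT2, PTPRA, PTPN11, CBL, CTTN, ENOSF1, TYMS, USP14 and the single marker genes. Some genes that the rule names are not reported here.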

Additional observations from a re-analysis of the deposited data

How the results depend on the processing

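The count of 2 called members became 1 (PAG1) with the replicate block and under the rule of a 1.5-fold change with unadjusted p, which YES1 missed by size, and was 1 to 2 with 1 library left out. The count over all genes, 3939, was 2729 with the replicate block and 2197 to 2932 with 1 library left out. The 28 called genes of the pathway lists became 20 with the replicate block, 43 with edgeR, 44 with edgeR after filterByExpr, 43 with DESeq2 and 15 to 23 with 1 library left out. With an offset of 5 RPM the log2 ratios of CD55, PEAK1 and PTPN22 moved to -1.06, -0.96 and -0.71, and that of NEDD9 to 1.91. That of FRK moved to 1.10 with the neighbour median taken off (adjusted p = 0.0064, limma). Over the alternatives run, RNF7 ranged from 0.59 to 1.17, EPHA2 from -0.91 to -0.47 and NT5E from 0.59 to 1.10. Signs turned for members near 0. FYN went to 0.47 with the neighbour median taken off and ranged from -0.11 to 0.057 with 1 library left out, LCK went to 0.12 with the neighbour median taken off (-0.25 to -0.0012 with 1 library left out), and CSK ranged from -0.0035 to 0.25 with 1 library left out. The fits with 1 library left out had fewer samples. The cause of the other changes was not tested. SRC, LYN and PAG1 kept their direction and their side of the threshold in all 18 other fits. FGR, at the floor, was given no alternative. LCK was not tested by the filter at 10 RPM, which removed it.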
